A study of Mus musculus with 4 samples.

Results

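Erythroid and heme synthesis genes are the genes by which a red cell precursor is recognised: transcription factors that start the program, the enzymes that build heme, and the proteins of the red cell membrane. The set was a fixed list of 36 genes, and 35 of them had a probe set annotated to 1 gene symbol, out of 19938 genes measured. Ahsp, the globin chaperone gene, was not analysed here. For each gene the brightest probe set stood for it, and the list names its members without a threshold on their values. The list was chosen with earlier results of these data known, so counts of members are descriptions.

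Whole bone marrow of C57BL/6N mice gave the RNA, and each of 4 samples was read on its own Affymetrix GeneChip Mouse Gene ST array. The mice had received a single intraperitoneal injection of phosphate-buffered saline (PBS, 2 arrays, replicates 1 and 3) or of 50 µg lipopolysaccharide (LPS, 2 arrays, replicates 1 and 2), and marrow was analysed 8 h later. The LPS came in equal parts from E. coli K12 and from S. minnesota. No age, sex or number of mice per sample is given in the sources used here, so p-values measure only the spread between these samples, which may be technical.

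Red cells form in the marrow from progenitors that respond to erythropoietin, and GATA1, KLF1 and TAL1 switch on the genes of hemoglobin, heme and the membrane skeleton in them. Heme is built in a relay between mitochondria and cytosol that starts with aminolevulinate synthase and ends when ferrochelatase inserts iron. Acute inflammation is known to restrict erythropoiesis and the release of iron from macrophages. Because the arrays measured whole marrow, fewer erythroid cells and less of an RNA per erythroid cell cannot be told apart.

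The arrays were alike in scale. The median log2 value over genes was 8.01 to 8.03, and the arrays correlated across genes (which are not independent replicates) at 0.995 within PBS, 0.997 within LPS and 0.988 to 0.990 between groups. All 35 members lay above 6.69, the lower quartile of gene means. Marrow markers were measured as well: 16 of 16 neutrophil, 15 of 15 B-cell and 7 of 7 red cell markers with a value had means above that quartile.

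In marrow 8 h after LPS, 34 of the 35 erythroid and heme genes had a lower mean than after PBS, by small amounts that did not pass the test. The median difference, LPS minus PBS, was -0.23 log2 over the members, against -0.01 over all genes. It ran from -0.40 for Add2, which encodes a subunit of the membrane skeleton protein adducin, to 0.01 for Cited4, a transcriptional cofactor gene. Over all genes 52.5% had a negative difference. In limma 0 of 35 members were called lower at an adjusted p under 0.05 over all genes, where 1.27% of genes were, and 0 were called higher, where 2.39% were. An ordinary linear model without moderation called 0 of all 19938 genes, so its 0 for the members or for any list below carries no information. At an unadjusted limma p under 0.05, 14 members were lower, against 8.69% of all genes, and 0 were higher, against 7.11%. The members were measured on the same 4 arrays, so these counts do not add up like independent observations.

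**Figure D1:**
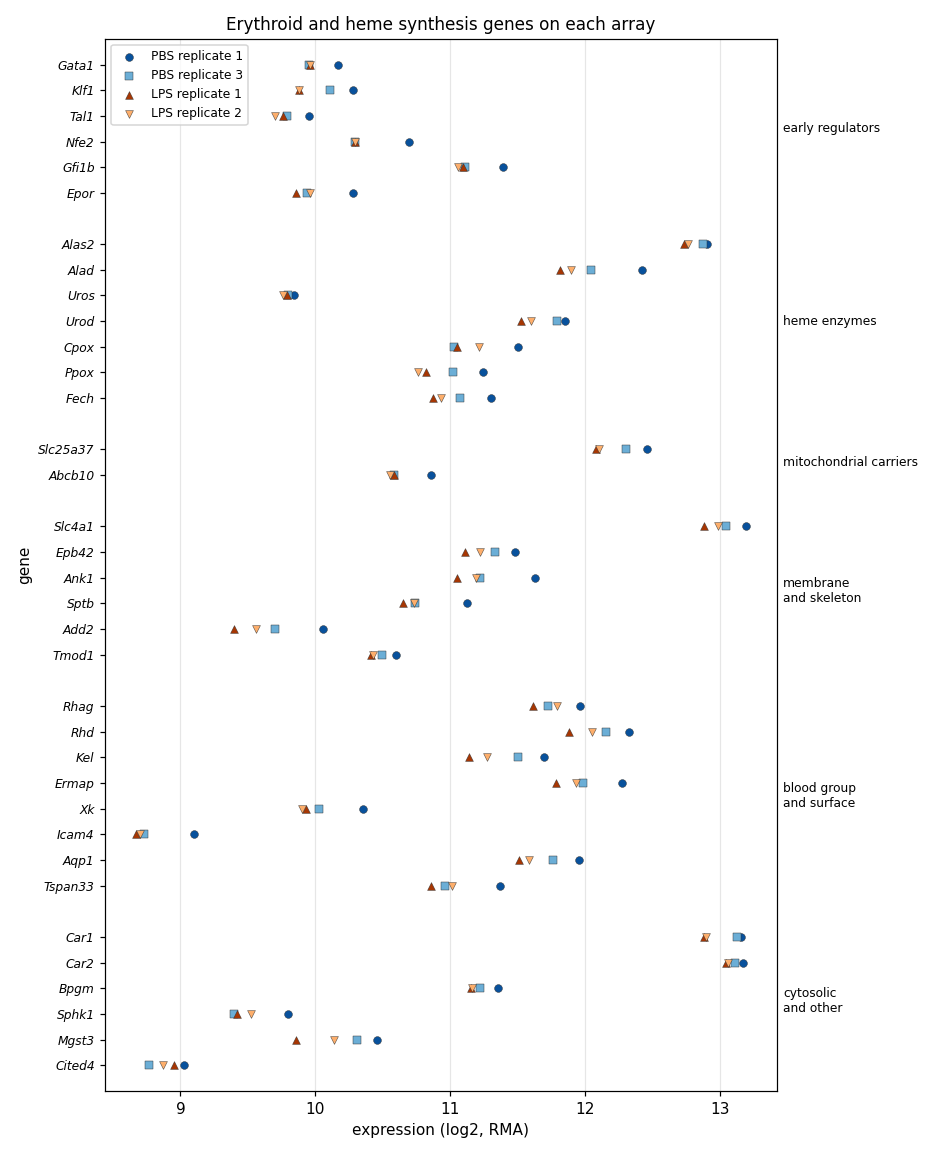
Expression of the 35 members on each array, as log2 values made by RMA, with genes in rows by role and 1 marker per array. PBS replicate 1 is the rightmost point in all 35 rows, while PBS replicate 3 lies close to the LPS arrays in genes such as Nfe2 and Gfi1b and close to PBS replicate 1 in genes such as Car1 and Urod.

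The 2 PBS arrays stood apart from each other, and with only 2 it cannot be said which of them is typical. PBS replicate 1 had the highest value of the 4 arrays in 35 of 35 members, against 30.2% of all genes. Its excess over PBS replicate 3 ran from 0.03 log2 to 0.47 log2, and in 16 members this gap between the PBS arrays was larger than the difference between the groups, against 53.3% of all genes. With PBS replicate 1 left out, 30 members still had a negative difference, but the median was -0.10, and 2 members were lower at an unadjusted p under 0.05, against 8.25% of all genes. With PBS replicate 3 left out, all 35 were negative with a median of -0.37. In that fit 26 had an unadjusted p under 0.05, against 9.61% of all genes, and 5 passed with adjusted p under 0.05, namely Add2, Alad, Ank1, Kel and Ppox, against 2.12% of all genes. A fit with 1 PBS array assumes that this array varies like the LPS arrays.

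**Figure D2:**
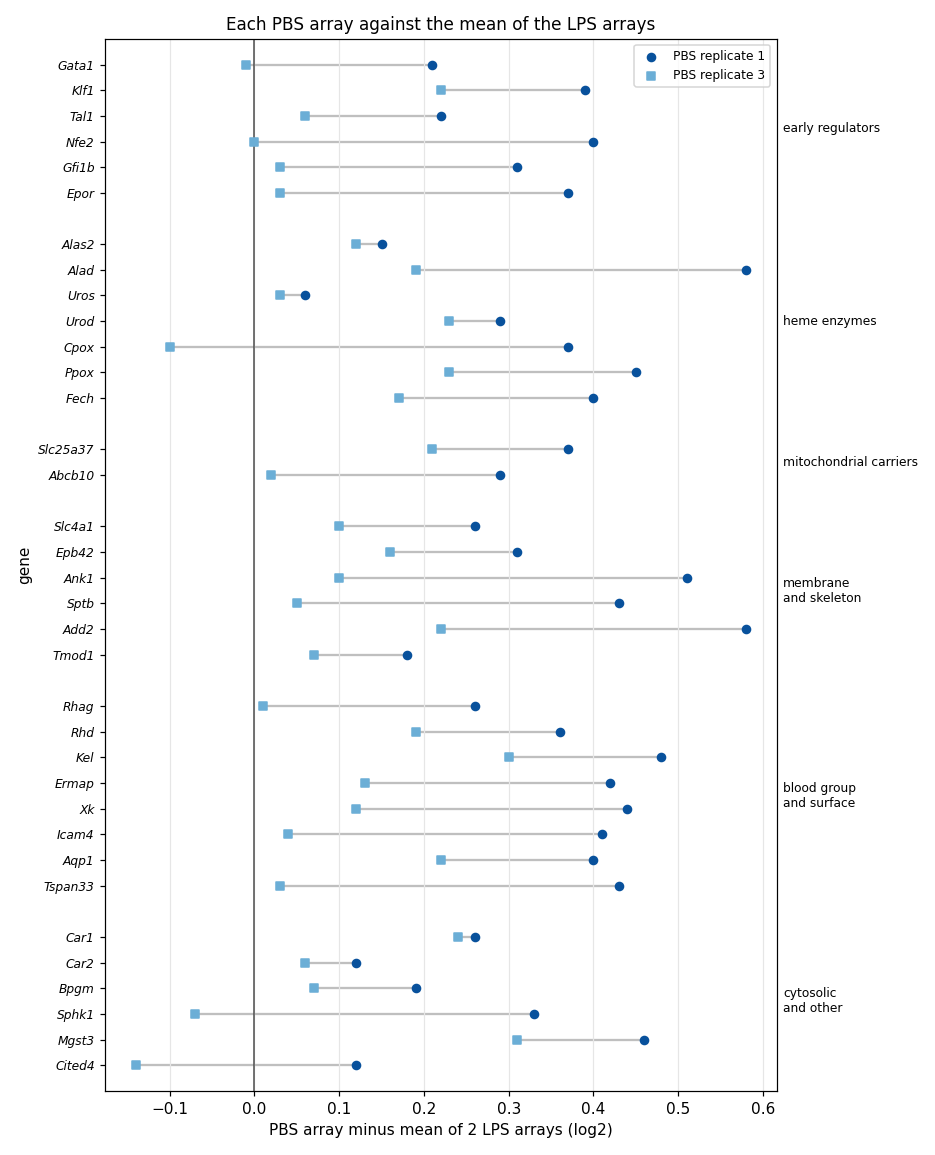
Each PBS array minus the mean of the 2 LPS arrays, in log2, with 1 row per gene and a line joining PBS replicate 1 and PBS replicate 3. PBS replicate 1 lies above 0 in every row and PBS replicate 3 lies at or below 0 in 5 rows, so the size of the group difference depends on which PBS array it is taken against.

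The members can be split by whether both LPS arrays lay below both PBS arrays. This was so for 27 of the 35, against 24.5% of all genes, and 0 lay wholly above, against 20.4% of genes. In the other 8 the groups overlapped: Gata1, Nfe2, Epor, Cpox, Rhag, Tspan33, Sphk1 and Cited4. For single genes the smallest two-sided p of an exact permutation test in this design is 0.333, so none was run.

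Sequences just before the start of 4 genes are shown because these members come from 4 of the 6 roles and lay lower on both LPS arrays than on both PBS arrays: Kel had the lowest adjusted p and Add2 the largest difference, Klf1 is the regulator with the largest difference, and Alas2 makes the enzyme of the first step of heme synthesis. Each is the 250 bases before the start in RefSeq (GRCm38.p6), read 5′ to 3′ on the strand of the gene. Capitals mark a match, on either strand, to the patterns for a GATA box or a CACCC box given below.
Kel (chr6:41704326-41704575, minus strand): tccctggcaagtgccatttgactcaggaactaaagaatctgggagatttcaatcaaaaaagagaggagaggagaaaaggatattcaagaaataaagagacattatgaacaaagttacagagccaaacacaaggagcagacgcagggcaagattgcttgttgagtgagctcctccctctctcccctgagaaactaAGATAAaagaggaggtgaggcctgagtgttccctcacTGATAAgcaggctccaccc
Klf1 (chr8:84901732-84901981, plus strand): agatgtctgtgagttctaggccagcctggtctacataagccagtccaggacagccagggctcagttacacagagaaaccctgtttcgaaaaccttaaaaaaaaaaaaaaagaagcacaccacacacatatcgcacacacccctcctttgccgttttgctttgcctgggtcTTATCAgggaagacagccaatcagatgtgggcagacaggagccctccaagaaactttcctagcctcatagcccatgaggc
Alas2 (chrX:150547167-150547416, plus strand): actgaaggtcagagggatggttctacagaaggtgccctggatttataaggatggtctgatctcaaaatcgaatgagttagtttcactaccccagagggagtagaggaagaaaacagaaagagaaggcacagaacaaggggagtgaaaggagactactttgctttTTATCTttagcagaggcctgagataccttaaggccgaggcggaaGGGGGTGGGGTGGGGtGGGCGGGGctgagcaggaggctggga
Add2 (chr6:86028431-86028680, plus strand): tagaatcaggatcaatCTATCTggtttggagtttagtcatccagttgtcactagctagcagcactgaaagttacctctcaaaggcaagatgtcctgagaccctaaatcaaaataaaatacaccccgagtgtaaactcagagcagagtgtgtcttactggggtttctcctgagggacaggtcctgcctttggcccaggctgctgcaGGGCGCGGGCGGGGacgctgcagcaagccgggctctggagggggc
The GATA box, the site of GATA1, was searched with the letters AGATAA, with AGATAG in their place, with TGATAA as a further form and with TGATAG as the last. The CACCC box, the site of KLF1, was searched as CCNCNCCC, a pattern that also takes in GC boxes and misses some runs of CACCC. Kel held 2 GATA boxes and Klf1 held 1, with 0 matches to CCNCNCCC in both windows although each holds the letters CACCC. Alas2 held 1 GATA box beside 4 matches to CCNCNCCC that overlap in part, and Add2 held 1 and 2. The matches in Add2, GGGCGCGG and GGGCGGGG, lack the letters CACCC on either strand, as does the match GGGCGGGG in Alas2. RefSeq windows were present for 28 members, 35 windows in all because some genes have several starts. A GATA box stood in 16 of these 35 windows, against 26.5% of all 32851 windows, and a match to CCNCNCCC in 23, against 45.9%. Both stood together in 7, against 8.19%. These matches are descriptions of letters, not evidence of binding.

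Early regulators had a median difference of -0.18. All 6 were negative, and both LPS arrays were below both PBS arrays in 3 of 6, against 24.5% of all genes. Klf1, the activator of globin and membrane genes that binds CACCC boxes, had 10.28 and 10.11 in PBS replicates 1 and 3 and 9.88 in each of LPS replicates 1 and 2. Both PBS arrays thus stood above both LPS arrays. The difference was -0.31 (SE 0.096, 95% interval -0.53 to -0.09), or 80.7% of the PBS level, with a limma adjusted p of 0.162. Gfi1b, a repressor needed for erythroid and platelet precursors, had 11.39 and 11.11 under PBS and 11.09 and 11.06 under LPS. Here PBS replicate 3 was 0.03 above the LPS mean and PBS replicate 1 was 0.31 above it, and the difference of -0.17 had an adjusted p of 0.55 in limma.

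The other regulators had PBS replicate 1 highest as well. Gata1, the zinc-finger factor that directs the erythroid program, had 10.17 in PBS replicate 1 and 9.95 to 9.96 on the remaining arrays. Nfe2, which encodes a subunit of the globin enhancer factor NF-E2, had 10.69 in PBS replicate 1 and 10.29 on each of the other arrays. Epor, the erythropoietin receptor gene, had 10.28 and 9.94 under PBS and 9.86 and 9.96 under LPS. In these 3 genes only PBS replicate 1 lay above both LPS arrays, and the groups overlapped. Tal1, the partner of GATA1 in DNA-bound complexes, had a difference of -0.14 without overlap (9.95 and 9.79 against 9.76 and 9.70). Without PBS replicate 1 the median over the 6 regulators was -0.03, and without PBS replicate 3 it was -0.34.

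Heme enzymes had a median difference of -0.26, with 7 of 7 negative. In 6 of 7 both LPS arrays lay below both PBS arrays, against 24.5% of all genes. In 1 of the 7, Cpox, the gap between the PBS arrays was larger than the group difference, compared with 5 of the 6 regulators and 53.3% of all genes. For Alad the gap of 0.38 and the difference of -0.38 were equal in size at 2 decimals. Whether heme enzymes and regulators differ was not tested. Without PBS replicate 1 the median over heme enzymes was -0.17, and without PBS replicate 3 it was -0.37.

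Along the pathway, the first enzyme showed a small and evenly placed difference. Alas2, the erythroid aminolevulinate synthase gene, had 12.90 and 12.87 under PBS and 12.73 and 12.76 under LPS, a difference of -0.14 (SE 0.0864, limma adjusted p = 0.515). Alad, whose enzyme joins aminolevulinate into porphobilinogen, had 12.42 and 12.04 under PBS and 11.81 and 11.89 under LPS. PBS replicate 1 stood well above the others, yet PBS replicate 3 was still 0.19 above the LPS mean. The difference was -0.38 (SE 0.132, 95% interval -0.69 to -0.08), with a limma adjusted p of 0.203 on all arrays, 0.0152 without PBS replicate 3 and up to 0.505 over the alternatives with moderated variances. Uros, the uroporphyrinogen synthase gene, hardly differed (9.84 and 9.80 against 9.79 and 9.76). Its difference of -0.04 had a 95% interval of -0.25 to 0.16.

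The later enzymes differed in how far the PBS arrays stood apart. Urod, the uroporphyrinogen decarboxylase gene, had 11.85 and 11.79 under PBS and 11.52 and 11.60 under LPS. Its PBS arrays lay within 0.06 of each other, and the difference was -0.26 (SE 0.0897, 95% interval -0.47 to -0.05, limma adjusted p = 0.2). Cpox, the coproporphyrinogen oxidase gene, had 11.50 and 11.03 under PBS and 11.05 and 11.21 under LPS. Its PBS arrays enclosed both LPS arrays, with the widest PBS gap of the members, 0.47. Ppox, the protoporphyrinogen oxidase gene, had 11.24 and 11.02 under PBS and 10.82 and 10.76 under LPS. The difference of -0.34 (SE 0.104, 95% interval -0.58 to -0.10) gave a limma adjusted p of 0.155, which was 0.0471 without PBS replicate 3 and reached 0.454 over the moderated alternatives. Fech, the ferrochelatase gene that acts last, had 11.30 and 11.07 under PBS and 10.87 and 10.93 under LPS, a difference of -0.28 with a limma adjusted p of 0.242.

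Both carriers of the inner mitochondrial membrane lay lower. Slc25a37 encodes mitoferrin, which brings iron to ferrochelatase, and had 12.46 and 12.30 under PBS and 12.08 and 12.10 under LPS. Its difference was -0.29 (SE 0.0953, limma adjusted p = 0.183), and PBS replicate 3 stood 0.21 above the LPS mean. Abcb10, a transporter gene whose product binds mitoferrin, had 10.86 and 10.58 under PBS and 10.58 and 10.55 under LPS, so that only PBS replicate 1 was set apart.

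**Figure D3:**
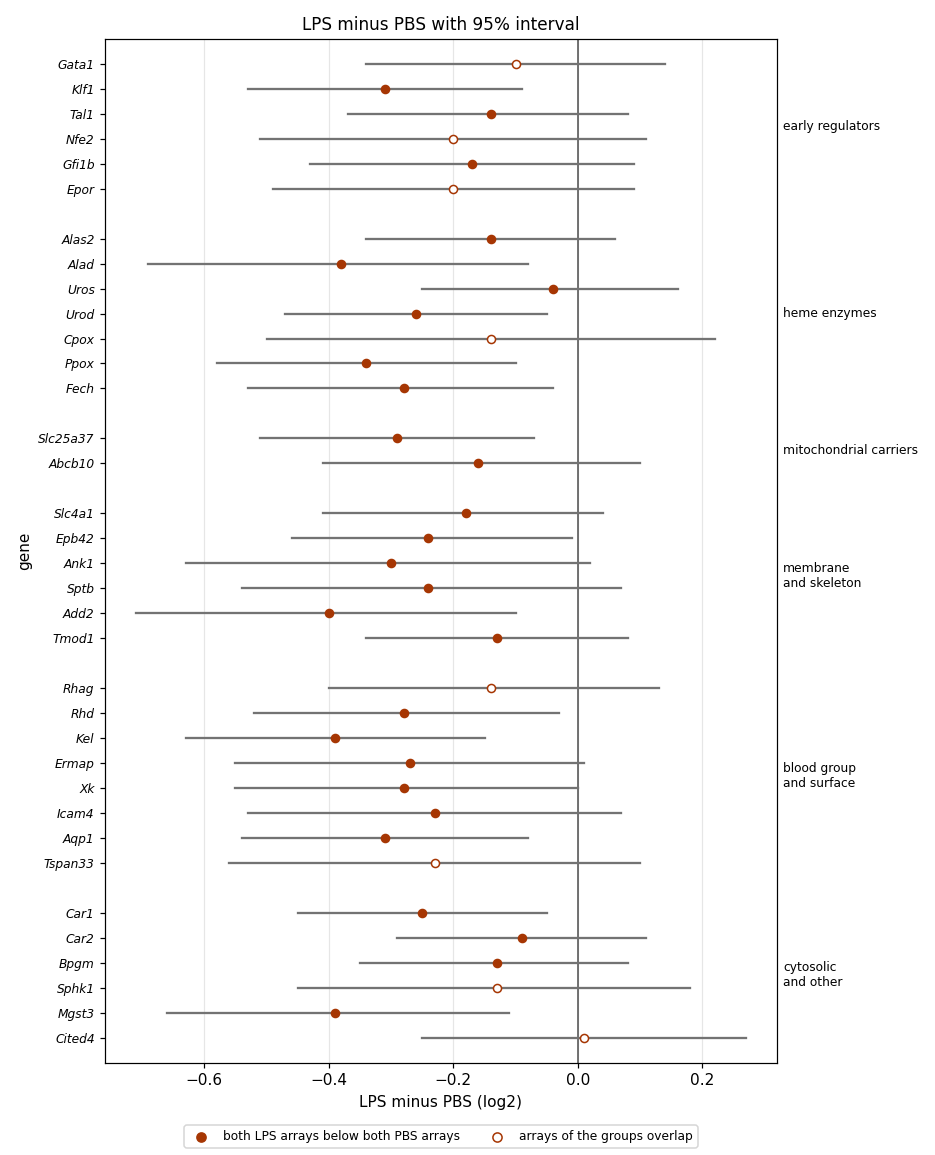
Difference between the LPS and PBS means of each member in log2 with its 95% interval from limma, in rows by role. Filled points mark the 27 genes with both LPS arrays below both PBS arrays and open points the 8 with overlap, and 34 of 35 points lie left of 0, none of them past the threshold after adjustment over all genes.

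Membrane and skeleton genes had a median difference of -0.24. On the brightest probe sets both LPS arrays lay below both PBS arrays in 6 of 6, against 24.5% of all genes. Add2, the beta-adducin gene, had 10.06 and 9.70 under PBS and 9.40 and 9.56 under LPS. Its difference of -0.40 (SE 0.132, 95% interval -0.71 to -0.10) was 75.7% of the PBS level, with a limma adjusted p of 0.183, 0.0182 without PBS replicate 3 and up to 0.474 over the moderated alternatives. Ank1, the ankyrin gene that anchors the skeleton to the membrane, had 11.63 and 11.22 under PBS and 11.05 and 11.19 under LPS. PBS replicate 3 was only 0.10 above the LPS mean there, and the difference of -0.30 had a limma adjusted p of 0.353, or 0.034 without PBS replicate 3.

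The remaining skeleton genes had smaller differences. Slc4a1, the chloride-bicarbonate exchanger gene, had 13.19 and 13.04 under PBS and 12.88 and 12.98 under LPS. Epb42, whose product ties that exchanger to ankyrin, had 11.48 and 11.33 against 11.11 and 11.22, a difference of -0.24 with a 95% interval of -0.46 to -0.01. Sptb, the beta-spectrin gene, had 11.12 and 10.74 against 10.65 and 10.73, where PBS replicate 3 nearly met the LPS arrays. Tmod1, the tropomodulin gene that caps actin filaments, had -0.13 on its brighter probe set and 0.06 on its dimmer one, so its probe sets differed in sign. On the dimmer probe set the groups overlapped (9.03 and 8.82 against 8.97 and 9.0). Without PBS replicate 1 the median over the skeleton genes was -0.10, and without PBS replicate 3 it was -0.37.

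Blood group and surface genes had a median difference of -0.27, with 8 of 8 negative. In 6 of 8 both LPS arrays lay below both PBS arrays, against 24.5% of all genes. Kel, the Kell blood group endopeptidase gene, had 11.69 and 11.50 under PBS and 11.14 and 11.27 under LPS. Both PBS arrays were clearly above both LPS arrays, by at least 0.30 against the LPS mean. Its difference was -0.39 (SE 0.104, 95% interval -0.63 to -0.15), or 76.3% of the PBS level, and its limma adjusted p of 0.106 was the lowest of the members. That p was 0.0404 without PBS replicate 3 and reached 0.391 over the alternatives with moderated variances. Aqp1, the water channel gene, had 11.95 and 11.76 under PBS and 11.51 and 11.58 under LPS, a difference of -0.31 (SE 0.0994, limma adjusted p = 0.174).

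Within the Rh complex, Rhd had a difference of -0.28 and its partner Rhag of -0.14, and whether they differ was not tested. Rhd had 12.32 and 12.15 under PBS and 11.88 and 12.05 under LPS, without overlap. Rhag had 11.96 and 11.72 against 11.61 and 11.79, with PBS replicate 3 between the LPS arrays. Xk, whose product is linked to Kell on the cell surface, had a difference of -0.28 (10.35 and 10.03 against 9.93 and 9.90). The differences were -0.27 for Ermap and -0.23 for Icam4, both genes of blood group antigens, and -0.23 for the tetraspanin gene Tspan33. In Icam4 and Tspan33 the PBS arrays were 0.37 and 0.41 apart. On 7 of the 8 surface genes LPS replicate 1 was the lowest array, as on 6 of 6 skeleton genes, and on 1 of 6 early regulators, against 24.6% of all genes. It was also lowest on 13 of 15 B-cell markers, and the difference between role groups was not tested. Without PBS replicate 1 the median over the surface genes was -0.12, and without PBS replicate 3 it was -0.42.

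The cytosolic and remaining genes had the least negative median, -0.13, over 6 genes. Mgst3, a microsomal glutathione transferase gene, had 10.46 and 10.31 under PBS and 9.86 and 10.14 under LPS. Its LPS arrays were 0.28 apart, the widest LPS gap among the members, and the difference was -0.39 (SE 0.118, limma adjusted p = 0.153). Car1 and Car2 encode the red cell carbonic anhydrases. Car1 had 13.15 and 13.12 under PBS and 12.88 and 12.89 under LPS, so that the arrays of each group lay together and the groups were 0.25 apart (SE 0.0861, limma adjusted p = 0.203). Car2 had 13.17 and 13.11 against 13.04 and 13.06, a difference of -0.09.

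Bpgm, the bisphosphoglycerate mutase gene whose product lowers the oxygen affinity of hemoglobin, had a difference of -0.13 (95% interval -0.35 to 0.08). Sphk1, the sphingosine kinase gene, had 9.80 in PBS replicate 1 and 9.40 to 9.52 on the other arrays. Cited4 was the 1 member without a negative difference, with 9.03 and 8.77 under PBS and 8.95 and 8.87 under LPS. In both of these the PBS arrays enclosed the LPS arrays. In 5 of the 35 members the PBS arrays lay within 0.1 of each other, namely Alas2, Uros, Urod, Car1 and Car2.

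Other genes of the pathway were read from 5 further lists of 98 measured genes, with the members left out. Of these, 7 rose and 3 fell in limma, where 2.39% of all genes rose and 1.27% fell. Among 20 other erythroid regulators 0 passed in limma (4 lower and 0 higher at an unadjusted p under 0.05), with a median of -0.15. Myb, a progenitor transcription factor gene, had 11.62 and 11.61 under PBS and 11.29 and 11.39 under LPS (difference -0.27, limma adjusted p = 0.185), and Ldb1, which bridges GATA1 complexes, had a difference of -0.17. PBS replicate 1 was the highest array in 19 of these 20.

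Among 17 other heme and globin genes 1 rose and 0 fell, with a median of -0.09. The riser was Tspo, a mitochondrial porphyrin-binding protein gene not limited to red cells, with 11.64 and 11.53 under PBS and 12.10 and 12.17 under LPS (difference 0.55, SE 0.0922, limma adjusted p = 0.0188, from 0.00659 to 0.0882 over the moderated alternatives). The call on Tspo was lost with every probe set in the fit (limma adjusted p = 0.0882) and without LPS replicate 2 (difference 0.52). Alas1, the aminolevulinate synthase of other tissues, had a positive difference of 0.40 that did not pass (limma adjusted p = 0.0848). The difference of Alas2 was -0.14, and the contrast between Alas1 and Alas2 was not tested. Of these 17 genes 13 had a negative difference and 4 a positive one. Slc48a1, with -0.37, did not pass either (limma adjusted p = 0.0699). Adult globins were not analysed here, since their probe sets carry several gene symbols.

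Of 16 other red cell membrane genes 1 rose and 1 fell, with a median of -0.07. Add3, the gamma-adducin gene, fell from 10.87 and 10.76 to 10.08 and 9.97 (difference -0.79, SE 0.0949, limma adjusted p = 0.00364), and it passed under every alternative with moderated variances. It belongs to the same family as Add2 and is expressed in many cell types. Slc2a1, a glucose transporter gene, rose from 9.82 and 9.79 to 10.46 and 10.32 (difference 0.58, limma adjusted p = 0.0148). That call was lost with every probe set in the fit (0.0784) and without LPS replicate 1 (difference 0.51). Of 20 late erythroid and clearance genes, with a median of -0.15, the survival kinase gene Pim1 rose by 0.73 (limma adjusted p = 0.00798, and 0.0598 with every probe set in the fit). The catalase gene Cat fell by 0.50 (limma adjusted p = 0.0408). That call was lost with every probe set in the fit (0.151) and with centring on ribosomal protein genes (0.0555). It was also lost when PBS replicate 1 (difference -0.44) or LPS replicate 1 (-0.41) was left out.

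Iron genes held 5 of the 10 list genes that passed. Of 25 iron genes 4 rose and 1 fell, around a median of 0.00. Slc40a1, the iron exporter of macrophages, fell from 11.65 and 11.62 to 9.97 and 9.53. The rises were those of Cp (1.22), which encodes the ferroxidase ceruloplasmin, the transporter gene Slc39a14 (0.99), the haptoglobin gene Hp (0.80) and Id1 (0.44), a target of the bone morphogenetic proteins that control hepcidin. Their limma adjusted p-values were 0.0186, 0.00103, 0.00531 and 0.0448. Cp, whose PBS arrays had 9.59 and 10.31, did not pass with every probe set in the fit (0.125), nor did Id1 (0.147). The call on Id1 was lost when PBS replicate 1 (0.108), LPS replicate 1 (0.149) or LPS replicate 2 (0.156) was left out. Tfrc, the transferrin receptor gene by which erythroblasts take up iron, had 11.98 and 11.95 under PBS and 11.94 and 12.02 under LPS, a difference of 0.02. Erfe, the erythroblast hormone gene that lowers hepcidin, had 6.97 and 6.92 under PBS and 7.00 and 7.05 under LPS. Its values lay close to 6.69, the lower quartile of gene means, and its difference was 0.08.

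Markers of other cells were set beside the members array by array, as the median distance, in log2, of the list's genes from their own averages. Heme enzymes stood at 0.26 in PBS replicate 1, 0.02 in PBS replicate 3, -0.15 in LPS replicate 1 and -0.09 in LPS replicate 2. The blood group genes stood at 0.28, -0.02, -0.19 and -0.08 in the same order. The 7 measured red cell markers outside the members had 0.23, 0.03, -0.16 and -0.10, with PBS replicate 1 highest in 7 of 7, 0 past the threshold in limma, 3 lower and 0 higher at an unadjusted p under 0.05, and a median difference of -0.29. That median was -0.10 without PBS replicate 1 and -0.39 without PBS replicate 3. The order of the arrays was that of the medians over all 35 members, and these markers also stand in the pathway lists above. The brightest were Slc14a1, the urea transporter gene, with a difference of -0.35 (limma adjusted p = 0.0873), and Tspo2 with -0.08.

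Other lists did not share one pattern. PBS replicate 1 was the highest array in 12 of 16 neutrophil markers and 7 of 10 T-cell markers, but in 4 of 15 B-cell, 2 of 11 monocyte and 2 of 12 eosinophil and mast cell markers. Neutrophil markers stood at 0.14, 0.08, -0.01 and -0.20 on PBS replicates 1 and 3 and LPS replicates 1 and 2, and B-cell markers at 0.15, 0.14, -0.32 and 0.10. Megakaryocyte markers, a lineage that shares Gata1, Tal1, Nfe2 and Gfi1b with erythroid cells, had a median difference of -0.01 with 0 of 12 past the threshold in limma and 0 at an unadjusted p under 0.05. The median difference was -0.25 over the B-cell markers (15 of 15 negative), -0.19 over the neutrophil markers (14 of 16) and -0.15 over the T-cell markers (9 of 10), beside -0.23 over the members. Pf4, a platelet chemokine gene, had 0.04 and Ppbp -0.02. Single markers passed in limma in several lists. Retnlg of neutrophils fell by 0.76, Fcer2a and Cr2 of B cells by 1.61 and 0.75, Cd8b1 and Icos of T cells by 0.52 and 0.45, and the eosinophil chemokine receptor gene Ccr3 by 1.59. Ccr3 was the only 1 of 12 eosinophil and mast cell markers to pass, and the median of that list was -0.13 (10 of 12 negative). Vcan, Fcgr1 and Ms4a6c of monocytes rose by 2.26, 1.57 and 0.49, and Procr of stem cells rose by 1.55. Over the monocyte markers the median was -0.03 (6 of 11 negative), and over the stem cell markers -0.05 (7 of 12). The calls on Fcer2a, Ccr3, Vcan, Fcgr1 and Procr held under every alternative with moderated variances. Those on Retnlg (limma adjusted p = 0.103), Cr2 (0.0741), Cd8b1 (0.157), Icos (0.16) and Ms4a6c (0.158) were lost with every probe set in the fit. Icos was also lost with centring on ribosomal protein genes (0.0793). Cd8b1 was lost without PBS replicate 3 (0.0682) or LPS replicate 2 (0.181). Icos was lost without PBS replicate 1 (0.0992), LPS replicate 1 (0.0667) or LPS replicate 2 (0.243), and Ms4a6c likewise (0.0989, 0.162 and 0.0807). The part of these other lists in the members' values was not tested.

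**Figure D4:**
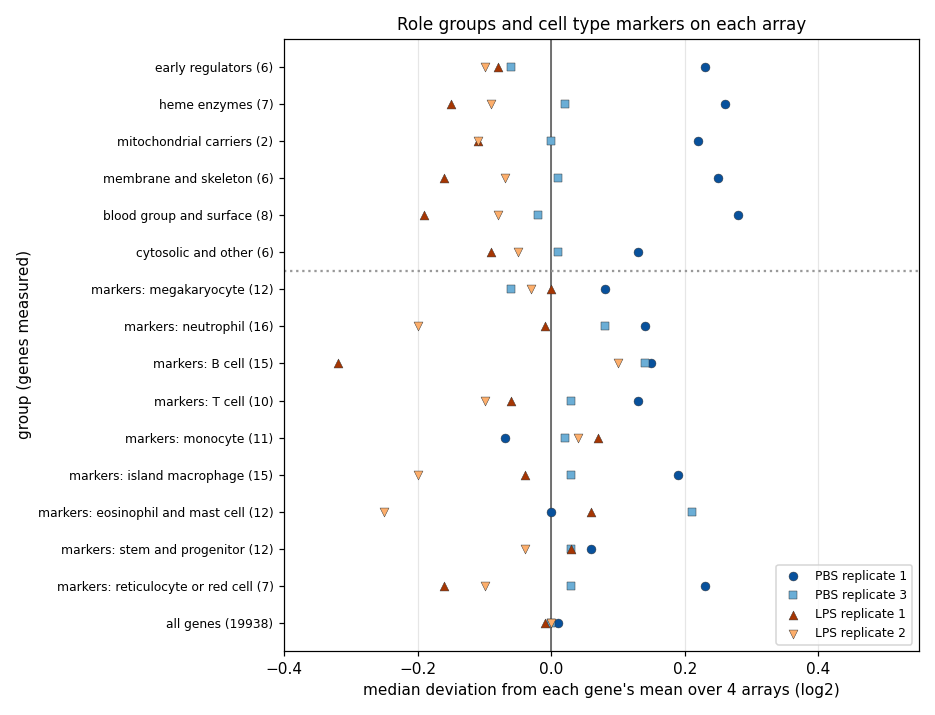
Log2 distance of each list from its genes' own averages (median over the list), for the 6 role groups of the members and for 9 lists of cell type markers, with 1 marker per array. PBS replicate 1 lies rightmost in all 6 role groups (0.13 to 0.28) and the red cell markers (0.23), and also in the macrophage (0.19), B-cell (0.15), neutrophil (0.14), T-cell (0.13), megakaryocyte (0.08) and stem cell (0.06) markers, and all genes together lie within 0.01 of 0.

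Macrophage genes of the erythroblastic island, the nest in which erythroblasts mature around a macrophage, had calls in both directions: of 15 measured, 5 fell and 2 rose, with a median of -0.26. Cd163 fell by 2.41 and Mrc1 by 1.72, beside Slc40a1 above, and the adhesion gene Vcam1 fell by 0.79 (limma adjusted p = 0.00309). Mertk, a receptor gene for engulfing dead cells and extruded nuclei, fell by 0.54 (limma adjusted p = 0.0317, and 0.158 without LPS replicate 2). Spic, the factor of iron-recycling macrophages, rose by 1.49 (limma adjusted p = 0.000435), and Adgre1 rose by 0.56 (limma adjusted p = 0.0286, 0.055 without PBS replicate 1 and 0.0912 without LPS replicate 1). With every probe set in the fit the calls on Mertk (limma adjusted p = 0.131) and Adgre1 (0.124) were lost. The genes of this list are also expressed by macrophages outside such islands, and their part in the members' values was not tested.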

How the data were processed

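The authors deposited log2 values, 1 per probe set and array, from RMA (per the submitters' processing notes). Its version is not given in the sources used here. Values ran from 2.76 to 14.52, a log2 range. Of 35556 probe sets, 21789 carried exactly 1 gene symbol in the platform annotation, 1621 several and 12146 none. The brightest probe set stood for each of 19938 genes, and no filter was applied. LPS was compared with PBS in limma 3.58.1 (R 4.3.3, lmFit and eBayes, two-sided, no covariate, Benjamini-Hochberg over all genes, adjusted p under 0.05), with 2 residual and 5.59 prior degrees of freedom. Adjusted p-values and 95% intervals are from this fit. It was also run on simulated arrays with independent noise and the variances that the fit itself assumes. Such arrays hold no offset shared by many genes, so that run does not cover the gap between the PBS arrays. With arrays, precision is limited by their number.

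The members, their roles and the lists were chosen with earlier results of these data known, so members' counts are descriptions, given beside the share of all genes, with no test over a list. All members are named. Values per array were to be given for differences of at least 0.3 log2 and for 2 members of each role, and those of further members were added. Of the other lists, the genes past the threshold are named, up to 6, or else the 2 brightest. Alas1, Slc48a1, Tfrc, Erfe and Mertk were added after their values were seen. Alternatives were the mean over probe sets, all probe sets, trended robust or no moderation, a filter at the lower quartile, an adjusted p under 0.01, centring on the array median or on 15 ribosomal protein genes, and leaving out each array. Promoter letters are from RefSeq (GRCm38.p6). Python 3.11.15 with matplotlib 3.10.9 drew the figures.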

Additional observations from a re-analysis of the deposited data

How the results depend on the processing

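No paired analysis was possible because the PBS and LPS groups share only replicate number 1. The count of members called lower was 0 under every alternative on all 4 arrays and 0 to 5 when 1 array was left out, 5 without PBS replicate 3, and 0 were called higher under every alternative. The median over all members was -0.37 to -0.10 with 1 array left out, that of the early regulators -0.34 to -0.03, of the skeleton genes -0.37 to -0.10, of both membrane groups -0.42 to -0.11 and of the cytosolic genes -0.23 to -0.07. Centring on ribosomal protein genes moved the median of all genes from -0.01 to 0.06 and that of the members to -0.17, and Uros then had 0.02. Without PBS replicate 1 the sign turned for Gata1, Nfe2, Cpox and Sphk1. With 1 array left out Gata1 ran from -0.21 to 0.01, Nfe2 from -0.40 to 0.00, Cpox from -0.37 to 0.10, Sphk1 from -0.33 to 0.07 and Cited4, which turned negative without PBS replicate 3 or LPS replicate 1, from -0.12 to 0.14. Over all genes, 254 were lower and 476 higher. The lower count was 63 with every probe set in the fit, 0 without moderation, 58 at an adjusted p under 0.01 and 127 to 423 with 1 array left out. The higher count was 0 without moderation, with 2185 genes in both directions at an unadjusted p under 0.05, and 286 at an adjusted p under 0.01. Of the pathway list genes, 3 were lower, but 5 with trended robust moderation, 0 without moderation and 2 to 12 with 1 array left out, and 7 were higher, but 2 with every probe set, 0 without moderation and 3 at an adjusted p under 0.01. The cause of these changes was not tested. In each such fit the lone array is assumed to vary like the others.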
